A study of Sus scrofa with 12 samples.

Results

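The genes described here encode dual-specificity MAP kinase phosphatases, named as DUSP1, DUSP4, DUSP5, DUSP6 and DUSP10. Members were all probes whose symbol in the platform's gene table is 1 of these 5. They came to 5 probes of 4 genes, out of 43769 probes measured on all arrays, with 2 probes for DUSP5 and 1 each for DUSP1, DUSP4 and DUSP10. No probe carried the symbol DUSP6, which was not analysed here. The genes were selected on their ratios per biological set in these embryos, so those ratios and their spread are given as a description. Intervals and counts of the members from the fit over all probes describe the same ratios, and no test of the members is drawn from them.

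MAP kinases are switched on when an upstream kinase phosphorylates both a threonine and a tyrosine in their activation loop. Dual-specificity phosphatases remove both phosphates, and several of their genes are themselves induced by the kinases they switch off, which closes a feedback loop. The nuclear enzymes DUSP1, DUSP4 and DUSP5 belong to the inducible branch, and DUSP5 acts on ERK. DUSP6 is the cytoplasmic ERK phosphatase, and DUSP10 acts on the stress kinases p38 and JNK. In mouse blastocysts the FGF and ERK pathway directs cells of the inner cell mass towards hypoblast, and ERK signalling also serves the trophectoderm.

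Embryos of Day 9 after ovulation came from primiparous sows in which oestrus had been stimulated during lactation; the study's title names intermittent suckling. FE sows were inseminated at that oestrus and SE (skip-a-heat) sows at the next one, with 3 sows in each group. Per sow, 5 male and 5 female embryos, sexed by PCR, were pooled by sex, which gave 12 pools of whole embryos. Each of 12 two-colour arrays set FE against SE embryos of 1 sex, and the arrays form 3 male and 3 female sets with a first and a dye-swap array each. Each sow gave a pool of either sex, so the 6 sets are not fully independent. All embryos, FE and SE, came from sows under the same stimulation of oestrus.

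The values were read as log2 ratios of FE and SE embryos from their range, since the log base was not given in the sources used here. All folds below rest on that reading. A set ratio is the mean of the first array and the sign-turned swap array. As deposited, both arrays of a set correlated negatively over probes (r from -0.149 to -0.766). The labels give FE with Cy3 on all 12 arrays, and the numerator is not given in the sources used here. A positive ratio therefore has the sign of the first arrays, and which of FE and SE was higher is not stated. If the overall sign is the opposite one, every ratio below changes its sign and keeps its size. Male set 3 and female set 3, on slide 3, stood apart: 4.16% and 3.81% of all probes had a ratio of at least 2-fold there, against 0.473% to 1.96% in the other 4 sets. In whole-embryo pools, fewer cells of a type and less RNA per cell cannot be told apart. Single-channel intensities were not analysed here, so neither the level of a phosphatase nor that of a lineage marker can be read, and the label of whole embryos could not be checked against marker levels.

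DUSP5, the nuclear phosphatase of ERK, had the widest spread among the members. The ratios of its probe 20434 in the male sets were 0.048, 0.44 and -1.91. In the female sets the same probe had ratios of -0.88, 1.74 and -1.83. It was thus strongly negative in male set 3 and female set 3, negative in female set 1, strongly positive in female set 2, and near 0 in male set 1. FE and SE pools thus differed 3.75-fold in male set 3, 3.54-fold in female set 3 and, the other way, 3.35-fold in female set 2. The ratio of the highest set was 12.5 times that of the lowest. The arrays of a set agreed closely: the first array and the turned swap array gave -1.78 and -2.03 in male set 3, 1.83 and 1.66 in female set 2, and -1.91 and -1.74 in female set 3. The standard error of a set ratio, from its 2 arrays, was 0.091 for this probe. Male set 3 and female set 3 thus differed by less than that error, and male set 1 and male set 2 differed by more. The mean over sets was -0.40 ± 1.42 (SD, n = 6 sets), since 3 sets were positive and 3 negative.

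The second DUSP5 probe, 17613, had a narrower range. Its male ratios were 0.50, 0.089 and -0.31, and its female ratios 0.018, 0.13 and -0.76. Male set 3 and female set 3 were again the 2 lowest, but male set 1 was the highest and female sets 1 and 2 lay near 0. The mean was -0.055 ± 0.43 (SD, n = 6 sets), and the standard error of a set ratio was 0.12. Probes 17613 and 20434 had the same sign in 5 of 6 sets, with r = 0.69 over the sets. Within their standard errors lay probe 20434 in male set 1 and probe 17613 in male set 2 and female set 1. The probes lie far apart in female set 2, at 0.13 and 1.74, and by a like amount in male set 3, at -0.31 and -1.91. Probe 20434 carries a transcript accession that the pig RefSeq table also gives to DUSP5, whereas 17613 and the other member probes carry a symbol alone. Averaged over both probes, DUSP5 had ratios of 0.27, 0.26 and -1.11 in male and -0.43, 0.93 and -1.29 in female sets.

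DUSP1, an early-response phosphatase of p38, JNK and ERK, had male ratios of 0.27, 0.41 and -1.49. Its female ratios were -0.95, 1.37 and -0.20. Male set 3 was the lowest and female set 2 the highest, as for DUSP5 probe 20434, while female set 3 lay near 0. FE and SE pools differed 2.82-fold in male set 3, 1.93-fold in female set 1 and, the other way, 2.59-fold in female set 2. On single arrays male set 3 had -1.37 and -1.62, and female set 2 had 1.65 and 1.10. The standard error of a set ratio was 0.14, and the mean was -0.10 ± 1.02 (SD, n = 6 sets). Male sets 1 and 2, neighbours in the order of the sets, differed by about that error.

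**Figure D1:**
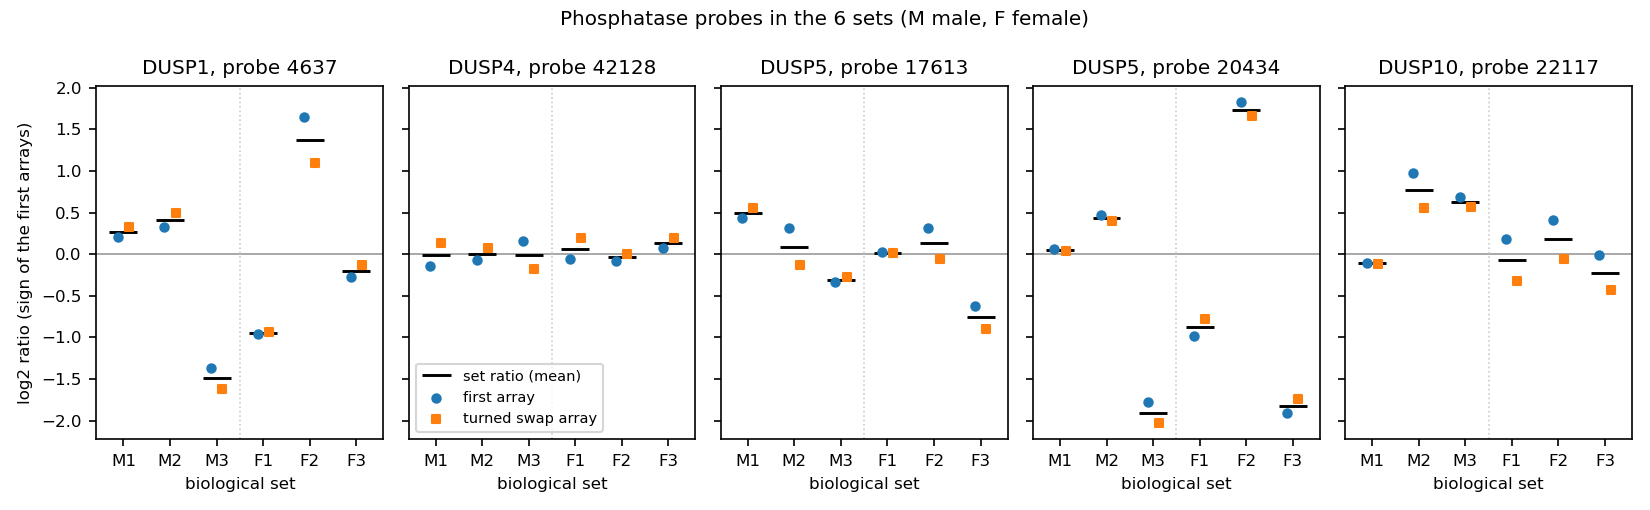
Log2 ratio of FE and SE embryos (y axis, sign of the first arrays) for the 5 member probes in each biological set (x axis, M male and F female). Circles are first arrays, squares are turned swap arrays and black bars are set ratios. DUSP1 and DUSP5 probe 20434 reach -1.49 and -1.91 in male set 3 and 1.37 and 1.74 in female set 2, while DUSP4 stays between -0.038 and 0.13.

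DUSP10, the phosphatase of p38 and JNK, followed another order. Its male ratios were -0.11, 0.77 and 0.63, and its female ratios -0.069, 0.18 and -0.22. Male sets 2 and 3 were high, at 1.71-fold and 1.55-fold, and the other 4 sets lay within 0.22 of 0. The ranges of the sexes overlapped. The mean was 0.20 ± 0.41 (SD, n = 6 sets), with 0.43 ± 0.47 in male and -0.037 ± 0.20 in female sets (SD, n = 3 sets each). This probe had an offset between array roles of 0.16: first arrays alone gave a mean of 0.36 and turned swap arrays alone 0.036. In male set 2 and in the 3 female sets the first array exceeded the turned swap array by 0.42 to 0.50.

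DUSP4, a nuclear phosphatase of the inducible branch, had ratios close to 0 throughout. The male sets had -0.0064, 0.0025 and -0.013, and the female sets 0.065, -0.038 and 0.13. No order of the sets can be read from this probe, since the standard error of a set ratio was 0.11 and the SD over sets 0.062. The mean was 0.023 ± 0.062 (SD, n = 6 sets), and the 95% interval of limma's mean ratio ran from -0.10 to 0.14. Without intensities, a probe with no signal and a gene at equal levels in both pools would look the same here.

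The probes were then placed among all probes by their spread between sets. The SD of the set ratios had a median of 0.19 over all probes and exceeded 0.97 in the top 1%. DUSP5 probe 20434 (SD 1.42) lay above 99.9% of all probes and DUSP1 (SD 1.02) above 99.3%, with 53 and 322 probes above them. DUSP5 probe 17613 (0.43) lay above 83.1% and DUSP10 (0.41) above 82.0%, whereas DUSP4 (0.062) lay above 1.91%. The SD over sets was 15.5 times the standard error of a set ratio for DUSP5 probe 20434, 7.15 times for DUSP1, 4.05 times for DUSP10, 3.56 times for DUSP5 probe 17613 and 0.562 times for DUSP4.

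**Figure D2:**
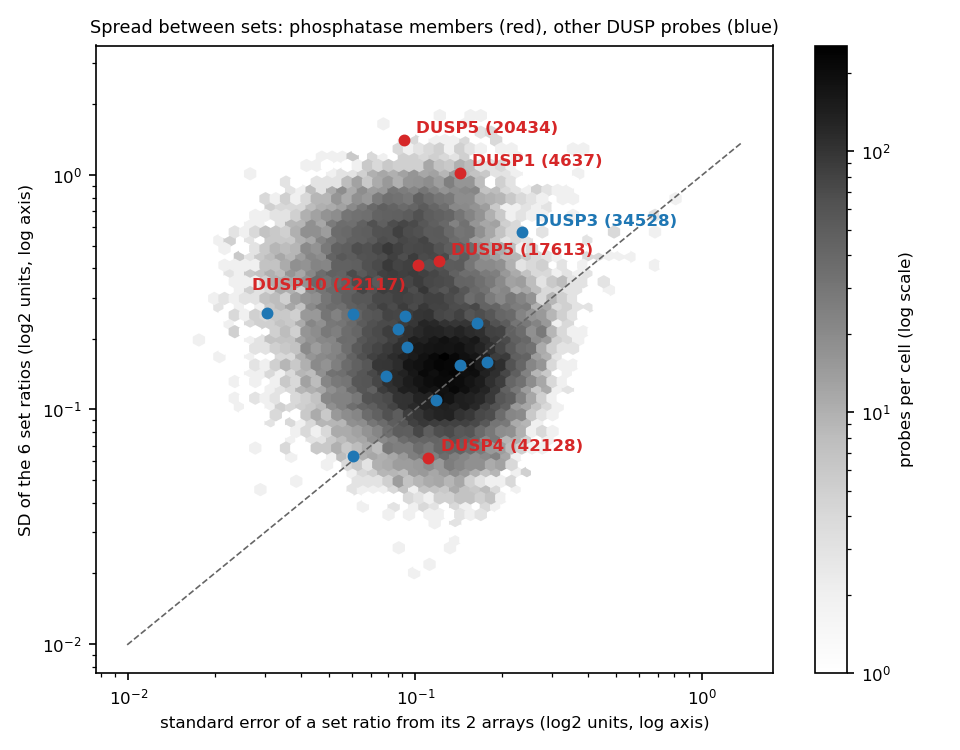
SD of the 6 set ratios (y axis, log2 units, log axis) against the standard error of a set ratio from its 2 arrays (x axis, log2 units, log axis) for all probes (grey cells, darker for more probes), the 5 members (red) and the other 12 DUSP probes (blue). The dashed line marks equal values. DUSP5 probe 20434 and DUSP1 lie near the top of the cloud, at 1.42 and 1.02, and DUSP4 lies below the line at 0.062.

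The study asked whether the mating strategy altered expression in the embryos, which for these genes is the mean ratio over sets. For both sexes the 95% interval of limma's mean ratio ran from -0.99 to 0.79 for DUSP1, from -1.65 to 0.85 for DUSP5 probe 20434 and from -0.42 to 0.31 for probe 17613. DUSP10 had an interval of -0.11 to 0.50. Intervals of DUSP1 and of DUSP5 probe 20434 thus include differences of 1.98-fold and 3.13-fold, and the interval of DUSP4 stays within 1.10-fold. As a description, 0 of the 5 member probes had an adjusted p under 0.05 by limma, and 0 of 5 an unadjusted p under 0.05, against 0.00457% and 5.92% of all probes (3.48% positive and 2.45% negative). A ratio of 1 sign in all 6 sets was found for 0 of 5, against 4.14% of all probes. The mean of DUSP5 probe 20434 rested on single sets: it was -0.91 without female set 2, -0.039 without male set 3 and -0.021 without female set 3, and the mean of DUSP1 lay between -0.42 and 0.21 with 1 set left out.

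Male and female embryos were compared through their ratios. DUSP1 had a mean of -0.27 ± 1.06 in male and 0.076 ± 1.18 in female sets (SD, n = 3 sets each). DUSP5 probe 20434 had -0.47 ± 1.26 and -0.32 ± 1.85, and probe 17613 had 0.094 ± 0.40 and -0.21 ± 0.48. The differences between the sexes were smaller than the spread within each sex for these probes, and the interval of limma's difference ran from -2.65 to 2.34 for DUSP5 probe 20434 and from -0.15 to 1.08 for DUSP10. The male and female ratios did not separate for any of the 5 probes, while they did for 6.94% of all probes. In male embryos, in female embryos and for the difference, 0 of 5 had an adjusted p under 0.05 by limma, against 0% of all probes each time. An unadjusted p under 0.05 was likewise found for 0 of 5, against 3.24%, 4.81% and 1.87% of all probes.

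**Figure D3:**
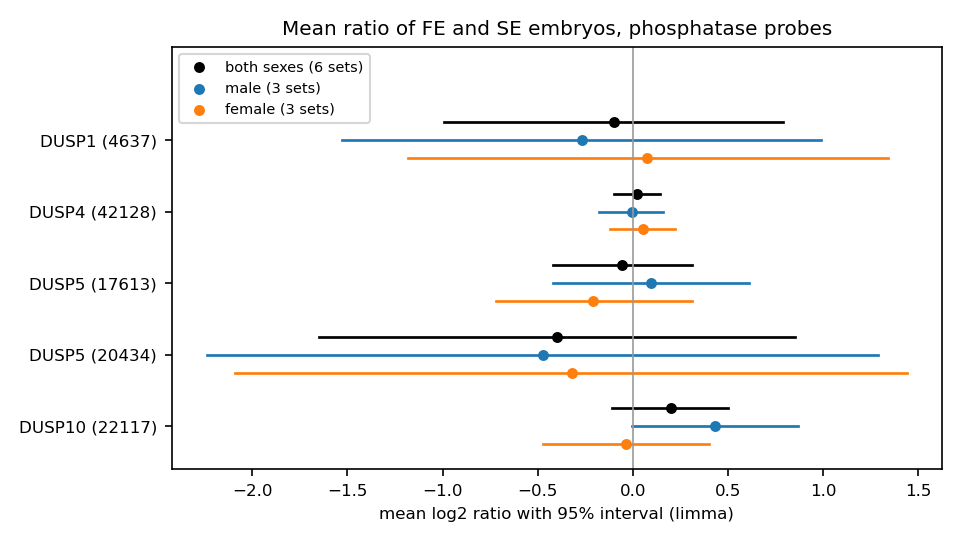
Mean log2 ratio of FE and SE embryos (x axis) for the 5 member probes (y axis), with limma's 95% interval, for both sexes (black, 6 sets), male (blue, 3 sets) and female embryos (orange, 3 sets). The intervals of DUSP1 and DUSP5 probe 20434 are the widest, from -0.99 to 0.79 and from -1.65 to 0.85 for both sexes.

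By slide, DUSP5 probe 20434 had a mean ratio of 0.24 on slide 1 (male sets 1 and 2), 0.43 on slide 2 (female sets 1 and 2) and -1.87 on slide 3 (male and female set 3). DUSP1 had 0.34, 0.21 and -0.85, and DUSP5 probe 17613 had 0.29, 0.071 and -0.53. On slide 2, DUSP5 probe 20434 had -0.88 and 1.74 in its 2 sets and DUSP1 had -0.95 and 1.37. Each set was hybridised within a single slide, so slide 3 and its pools cannot be told apart.

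Among the members, DUSP1 and DUSP5 probe 20434 varied together over the 6 sets. Their signs matched in 6 of 6 sets, at r = 0.883 (Pearson) and rho = 0.943 (Spearman), given as a description because sets share sows, slides and arrays. In male set 1 the sign of DUSP5 probe 20434 is not settled, since its ratio of 0.048 lay within its standard error of 0.091. The coefficient was 0.895 on first arrays alone, 0.859 on turned swap arrays alone, and 0.757 to 0.989 with 1 set left out. Female set 3 stood off that relation, with -1.83 for DUSP5 and -0.20 for DUSP1. DUSP10 did not follow either gene (r = 0.127 with DUSP5 probe 20434 and -0.0874 with DUSP1), and in male set 3, where both were lowest, it had 0.63.

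The remaining 12 DUSP probes, of 11 genes, had SDs between sets of 0.063 to 0.57 and mean ratios of -0.20 to 0.23. None reached a 2-fold ratio in any set. DUSP2 and DUSP7, the other MAP kinase phosphatases measured (2 of 5 on that list), had set ratios of -0.19 to 0.17 and -0.10 to 0.20. Their first and turned swap arrays had opposite mean signs, at -0.20 and 0.15 for DUSP2 and at 0.17 and -0.18 for DUSP7. DUSP3, an atypical phosphatase that also acts on ERK and JNK, was the most variable of the 12. DUSP3 had male ratios of -0.22, 0.42 and -0.74 and female ratios of -0.35, 0.53 and -0.82. Both sets on slide 3 were the lowest and female set 2 the highest, as for DUSP5 (r = 0.956 with probe 20434 over 6 sets). However, the standard error of a set ratio was 0.24, after removing an offset between array roles of 0.36. First arrays alone gave DUSP3 a mean of 0.16 and turned swap arrays alone -0.56. DUSP11, a phosphatase that acts on RNA, had a ratio of 0.23 ± 0.26 (SD, n = 6 sets; limma adjusted p = 0.827), with the sets at -0.019, -0.16 and 0.45 in male and 0.43, 0.26 and 0.41 in female embryos. DUSP19 had set ratios of -0.46 to 0.16.

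The rest of the pathway was described from 9 lists, chosen with earlier results of these data known, of which 110 of 155 genes were measured by 156 probes. For both sexes together 0 of the 156 probes passed limma's test (smallest adjusted p = 0.669), and 11 had an unadjusted p under 0.05, 5 positive and 6 negative, which is 7.05% against 5.92% of all probes. Their median ratio was -0.0013, against -0.0044 for all probes. Between sets, limma's moderated F on the 12 arrays sets the difference between pools against that between the arrays of a set, and does not compare FE with SE. It passed for 65 of them, which is 41.7% against 37.7% of all probes. By list that share was 0% of 2 probes of other MAP kinase phosphatases, 45.5% of 11 probes of atypical phosphatases, 38.5% of 26 ligand and 26.1% of 23 receptor probes. It was 70% of 20 probes from adaptor to MEK, 47.8% of 23 kinase, 11.1% of 9 feedback inhibitor, 42.9% of 35 early-response and 42.9% of 7 stress gene probes. Of the 20 probes from adaptor to MEK, 8 belong to MAP2K1 and MAP2K2. The differences between lists were not tested.

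Among ligands, HBEGF, a growth factor of the EGF family that binds heparin, had male ratios of 0.35, 0.52 and -0.57 and female ratios of 0.30, 1.14 and -0.12 (r = 0.954 with DUSP5 probe 20434 over 6 sets). Female set 2 was the highest set for HBEGF and male set 3 the lowest, the same extremes as for DUSP1. EREG, a further ligand of the EGF receptor, had -0.15, 0.022 and -0.88 in male and 0.38, -0.11 and -0.78 in female sets, low in both sets of slide 3. Of the PDGFA probes the most variable, 33766, spanned -0.97 to 0.78, and the other 3 had SDs of 0.15 to 0.39. VEGFA had the smallest p of the pathway, with 0.29 ± 0.16 for probe 13488 (SD, n = 6 sets; limma adjusted p = 0.669) and 0.35 ± 0.34 for probe 14494 (limma adjusted p = 0.817). The third VEGFA probe, 40933, had -0.018 ± 0.18. On the ligand list 2 of 26 probes had an unadjusted p under 0.05, both of VEGFA. Of 23 receptor probes 0 did, and the receptor genes with the largest F between sets were FGFR4 (0.26 ± 0.47 for probe 11891), PDGFRA (0.038 ± 0.30) and ERBB2 (-0.093 ± 0.36). FGFR4 had a second probe, 24060, with 0.12 ± 0.16.

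Of the components from adaptor to MEK, 2 of 20 probes had an unadjusted p under 0.05, both negative: NRAS, a Ras protein, at -0.49 ± 0.41 (limma adjusted p = 0.768) and RASA1, which promotes GTP hydrolysis by Ras, at -0.24 ± 0.33 (limma adjusted p = 0.817). GRB2, the adaptor that links receptors to Ras, had -0.25, -0.15 and -0.32 in male and 0.99, -1.32 and 1.52 in female sets, opposite in sign to DUSP5 in female set 2 and female set 3. PTPN11, the SHP2 phosphatase, reached 1.14 in female set 1 and -0.88 in male set 2. ARAF, a Raf kinase, was high in female set 2 (1.19) and low in the slide 3 sets (-0.35 and -0.42). Among the kinases 3 of 23 probes, of 2 genes, had an unadjusted p under 0.05, all negative (2.45% of all probes were). They were both probes of MAPK9, which encodes the kinase JNK2, at -0.37 ± 0.22 and -0.35 ± 0.29 (limma adjusted p = 0.744 and 0.791), and RPS6KA3, an ERK-activated kinase, at -0.26 ± 0.22 (limma adjusted p = 0.754). RPS6KA1, of the same kinase family, had set ratios of -0.50 to 0.76, MAPKAPK2 of -0.54 to 0.71, and MAP3K7 of -0.59 to 0.56 for its most variable probe, 8816.

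The Sprouty and SPRED genes encode feedback inhibitors of ERK signalling which, like the phosphatases, are known as targets of the pathway. Of 9 probes on the list of feedback inhibitors 0 had an unadjusted p under 0.05, against 5.92% of all probes. Between sets 1 passed (11.1%, against 37.7%). That probe was of RASA2, which is neither a Sprouty nor a SPRED gene, with 0.87 in male set 1 and -0.52 in male set 2. No Sprouty or SPRED probe passed between sets (smallest adjusted p of the moderated F 0.113, for SPRY2). SPRY2 spanned -0.33 to 0.28 and SPRED3 -0.12 to 0.35. Where DUSP5 probe 20434 was lowest and highest, SPRY2 had 0.084 (male set 3) and -0.11 (female set 2), both within its standard error of a set ratio of 0.12. In female set 3, where DUSP5 probe 20434 had -1.83, SPRY2 had -0.33. Over the 9 probes of the list, r with DUSP5 probe 20434 ran from -0.451 to 0.795.

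FOS, a transcription factor gene of the early response, had the widest spread of the 35 probes of early-response and ERK target genes. Its male ratios were -0.83, 0.050 and -2.96, and its female ratios were -2.88, -0.29 and -0.80. Male set 3 and female set 1 stood far below the other 4 sets, and those 2 sets were also the lowest for DUSP1 (r = 0.889 over 6 sets). The mean of FOS was -1.29 ± 1.31 (SD, n = 6 sets; limma adjusted p = 0.823), negative in 5 of 6 sets. ETV4, a target gene of FGF signalling, had 0.19 ± 0.20 for probe 44695 (limma adjusted p = 0.841) and -0.052 and 0.02 for its other 2 probes. FOS and that ETV4 probe were the 2 of 35 probes with an unadjusted p under 0.05. CYR61, a secreted matrix protein gene, had -1.01 in male set 3 but 0.95 in female set 3, and KLF6 reached 1.21 in female set 1. Among 7 probes of stress-induced genes 1 had an unadjusted p under 0.05, CDKN1A, which encodes a cell cycle inhibitor (0.17 ± 0.14 for probe 40899, limma adjusted p = 0.832). The second CDKN1A probe, 40527, had 0.046 ± 0.12. GADD45G had 1.44 and 1.62 in female sets 2 and 3 and -0.96 in female set 1. MDM2 spanned -0.40 to 0.85 and DDIT3 -0.51 to 0.67.

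**Figure D4:**
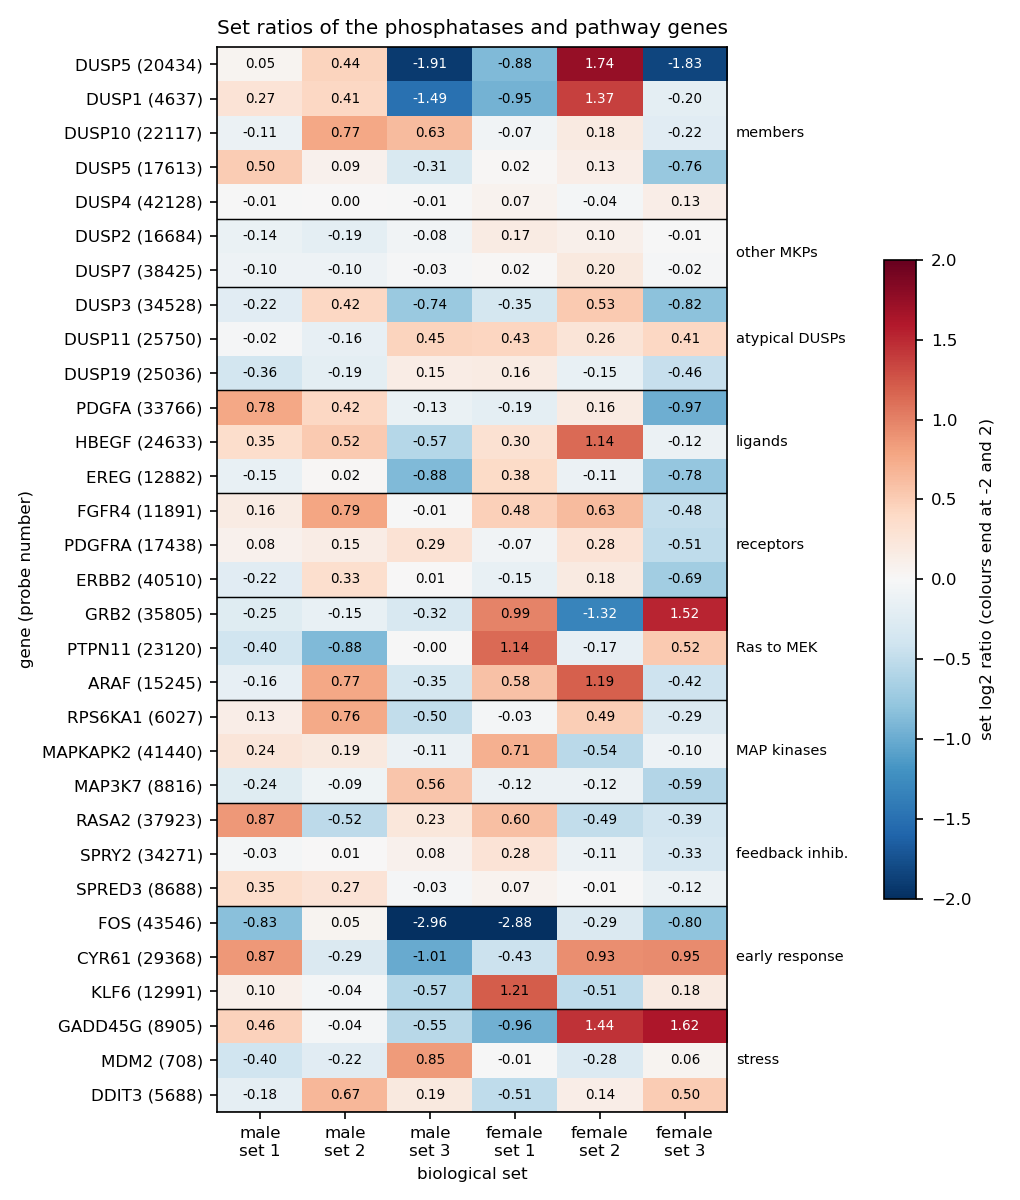
Set log2 ratios (colour and printed value) of the 5 member probes and of up to 3 genes per pathway list with the largest F between sets (rows, probe numbers in brackets) in the 6 sets (columns). DUSP5 probe 20434 and DUSP1 share their lowest and highest columns, at -1.91 and -1.49 in male set 3 and 1.74 and 1.37 in female set 2, and FOS is lowest in male set 3 and female set 1.

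**Figure D5:**
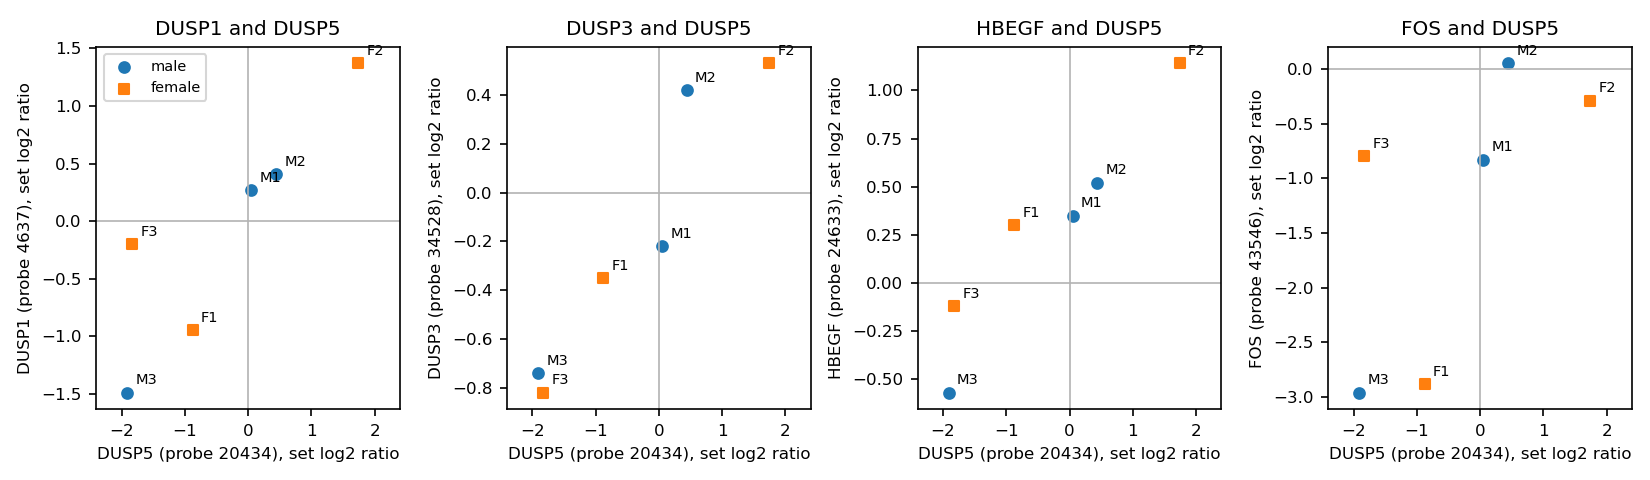
Set log2 ratios of DUSP1, DUSP3, HBEGF and FOS (y axes, with different ranges) against that of DUSP5 probe 20434 (x axes), with male sets as circles and female sets as squares. DUSP3 and HBEGF lie along 1 direction with DUSP5 (r = 0.956 and 0.954 over 6 sets), and for FOS female sets 1 and 3 lie apart, at -2.88 and -0.80.

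For each member gene the 3 genes of most similar pattern were taken by Pearson's r of gene means over the 6 sets, among genes with an SD between sets of at least 0.3. With 6 points, many genes come close: 39 of 3094 genes had an r of at least 0.9 with DUSP1 and 125 with DUSP5. DUSP1 was most like STAR, which brings cholesterol into mitochondria for steroid synthesis (r = 0.994), PPAG3 (0.986) and SMARCD2, a subunit of a chromatin remodelling complex (0.98). STAR had ratios of -0.029, -0.024 and -1.12 in male and -0.81, 0.81 and -0.39 in female sets, and its r with DUSP1 was 0.992 on first and 0.987 on turned swap arrays. DUSP5 was most like SMTN (0.988), TRIM29 (0.985) and ALDH16A1 (0.984), of which TRIM29 spanned -0.89 to 0.84. DUSP10 was most like DHX32 (0.971), GPAM, an enzyme of glycerolipid synthesis (0.965), and LOC100522267 (0.963), with only 10 genes at an r of at least 0.9. The genes closest to DUSP4, LOC100155967 (0.98), GRB2 (0.965) and CTTN (0.964), had an r of 0.239 to 0.372 on first and 0.567 to 0.65 on turned swap arrays, and the ratios of DUSP4 lay within its error.

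Some lineage markers had their extremes in the same sets and others did not. Of 23 trophectoderm probes, 8 were negative in male set 3 and female set 3 and positive in female set 2, like DUSP5 probe 20434, and 3 had the opposite signs there. The keratin genes KRT8 (probe 39716) and KRT19, on that list, had -1.60 and -2.55 in male set 3, 1.58 and 0.98 in female set 2, and -0.53 and -1.19 in female set 3. KRT18, a keratin gene on the same list, was low in male set 3 but not high in female set 2. Its probe 10395 had -1.91, 0.053 and -0.032 in these sets, and its probe 26249 had -1.98, -0.14 and -0.37. The transcription factor gene TFAP2C (probe 9872) had 0.65, -0.75 and 1.55 in these sets, and GATA2 had 0.28, -0.55 and 0.035. The second TFAP2C probe, 3489, had -1.23, -0.51 and 1.55, opposite in sign to probe 9872 in male set 3. Over the list 15 of 23 probes passed between sets (65.2%, against 37.7% of all probes). The list medians were 0.15, 0.17 and -0.06 in male and 0.051, 0.12 and -0.10 in female sets. In male set 3, female set 2 and female set 3, 2 of 10 hypoblast and 0 of 11 epiblast probes had the signs of DUSP5. The opposite signs were found for 0 and 1 of them. Their list medians lay between -0.24 and 0.20 and between -0.031 and 0.12. Between sets 5 of 10 hypoblast (50%) and 5 of 11 epiblast probes (45.5%) passed. The share of all probes with these signs was not computed, so the sign counts are a description. On the list of early conceptus signalling genes 6 of 8 probes had the signs of DUSP5 in these sets and 0 the opposite ones. Between sets 8 of 8 passed. The conceptus cytokine gene IL1B, on that list, had 3.95, -0.34 and -2.66 in male and -1.53, 2.73 and -1.93 in female sets. These were the same signs as DUSP5 probe 20434 except in male set 2, though in male set 1 the DUSP5 ratio lay within its standard error. IFNG, on the same list, had -0.78 in female set 2, where DUSP5 probe 20434 was positive. Of uterine markers 1 of 7 passed between sets, UPTI, with -1.47 (male set 3), 2.14 (female set 2) and -1.22 (female set 3) in the sets named above. The other 6 had SDs of 0.086 to 0.13, and the 5 blood probes had SDs of 0.072 to 0.15. The part of these markers in the ratios of DUSP1 and DUSP5 was not tested.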

How the data were processed

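Per the labels' protocols, pooled embryos' RNA was amplified to antisense RNA and labelled (Cy3, Cy5) for Agilent arrays. The authors deposited 1 log ratio per probe and array, read here as log2 from the range of -4.99 to 5.97; array medians lay between -0.0012 and 0.0108. The scanning, background correction, normalization, log base and numerator behind them were not given in the sources used here. Of 43794 probes, 25 with a missing value were left out. The platform's gene table gave the symbols, and 354 were updated through the pig RefSeq table; 18110 probes have a symbol and 25659 none.

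Swap arrays were turned because deviations of first and swap arrays from their means correlated at -0.728, and the 2 arrays of a set were averaged. The fit over set ratios used limma 3.58.1 (R 4.3.3; 1 mean per sex, eBayes, Benjamini-Hochberg over all probes, threshold 0.05, prior degrees of freedom 2.3). The moderated F between sets used 12 arrays with a term for array role. The standard error of a set ratio is the SD of an array about its set, after removing the mean role offset, divided by the square root of 2. In the leave-out fits the spread is pooled over the sexes. The fits were tested on simulated data whose sets were drawn independently, so sows or slides shared between sets were not covered. The precision of the mean ratios is limited by the 6 sets, from 3 sows in each group, since swap arrays are no replicates.

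The members and lists were chosen with earlier results of these data known. Named genes were the members, list genes with an unadjusted p under 0.05 for both sexes, the 3 genes per list with the largest F, and the 3 genes most like each member. IL1B, IFNG, KRT8, KRT18, KRT19, TFAP2C, GATA2 and UPTI are markers named after their values were seen. Alternatives are given in the closing section. Sequences of these genes were not used here.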

Additional observations from a re-analysis of the deposited data

Results flagged for a closer look

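The set ratios of the 41 named pathway probes besides the members were examined for a set far from the other 5 by Dixon's gap test at 95%. Chance passes that test in about 1 of 20 probes. These probes were picked from the same set ratios, so that rate need not hold for them. The share over all probes is not given here. Dixon's test singled out 4 probes. NRAS had 0.29 in female set 3, where the other 5 sets were negative. RPS6KA3 had -0.66 in female set 1, MDM2 had 0.85 in male set 3, and CDKN1A (probe 40899) had 0.45 in male set 1. MAP3K7 probe 25622 was positive in all 3 male and negative in all 3 female sets, with a male minus female ratio of 0.47. That difference did not pass in limma's fit (adjusted p = 1). In male set 1 the probe had only 0.019, with a standard error of a set ratio of 0.16. MAP3K7 probe 8816 was negative in male sets 1 and 2 (-0.24 and -0.09), and probe 13667 in male set 1 (-0.087). Male and female set ratios did not overlap for 6.94% of all probes.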

How the results depend on the processing

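With 1 set left out, the mean ratio ranged from -0.91 to -0.021 for DUSP5 probe 20434, from -0.16 to 0.083 for probe 17613, from -0.42 to 0.21 for DUSP1, from 0.11 to 0.33 for DUSP10 and from 0.004 to 0.046 for DUSP4. On first and on turned swap arrays alone it was -0.39 and -0.41 for DUSP5 probe 20434 and 0.36 and 0.036 for DUSP10, and FGFR4 probe 24060 had -0.046 and 0.28. The genes most like DUSP4 were 0 of the same 3 on first or swap arrays alone, and for DUSP5 they were 1 and 0, for DUSP10 1 and 1, and for DUSP1 2 and 2. For both sexes 2 probes passed over all probes. That count was 155 on first arrays alone, 14 on turned swap arrays alone, 323 when the 12 arrays entered singly (swaps are no replicates), 16335 with swap arrays not turned, 1 on named probes alone, 0 on gene means, 0 with the slide as a fixed block, and 0 to 1 with 1 set left out. In male embryos 0 passed (1418 at an unadjusted p under 0.05), but 1 on turned swap arrays alone, 5 with arrays entered singly and 8653 with swap arrays not turned, and in female embryos 0 (2107 unadjusted), but 1, 159 and 6824. The cause was not tested, except that unturned arrays keep the dye effect by construction. Between sets 16503 probes passed, 9606 without the term for array role, and 13295 to 16703 with 1 set left out. The difference between the sexes had 0 in each of these fits (819 unadjusted). With the set number as a replicate block 0 probes passed for both sexes (2174 unadjusted, from 2593), and 0 for either sex or the difference (1127 unadjusted). The F between sets was not run with that block. Deviations of same-numbered male and female sets correlated at 0.0467, 0.406 and 0.262, and those of unlike number at -0.349 to 0.0576. The numbers were not taken as pairs in the main fit, and whether same-numbered sets share sows was not tested.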

Other observations

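In 4 of the 12 other DUSP probes, singled out after their values were seen, the male and the female set ratios did not overlap, which held for 6.94% of all probes. They were DUSP2, DUSP7, DUSP18 and DUSP27. DUSP18 had ratios of -0.26 to 0.031 in male and 0.10 to 0.14 in female sets, and DUSP27 of -0.17 to -0.10 and 0.030 to 0.37. By limma 0 of the 12 probes passed for the difference between the sexes over all probes, and 1 had an unadjusted p under 0.05.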
